A study of Mus musculus with 12 samples.

Results

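The proteasome is the barrel-shaped protease that degrades ubiquitin-tagged proteins in the cytosol and nucleus. Transcripts of its subunits and dedicated partners were taken as all rows of the deposited array table whose single gene symbol begins with Psma, Psmb, Psmc, Psmd, Psme, Psmf or Psmg followed by a number. The interferon-induced catalytic subunits Psmb8 and Psmb9 were not among the members. The rule gave 52 of the 35556 rows, or 45 genes of the 18820 with a symbol of their own on the array. Of the genes, 39 had 1 row and 6 had several (Psma3 with 3; Psma5, Psmb1, Psmb3, Psmc1 and Psmd2 with 2 each). Another 2 rows carried a proteasome symbol together with a second symbol and were left out, so Psma4 has no row here.

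The mice were C57BL/6J animals with a humanized IKBKAP knock-in, labelled FDloxP/+ on every array, that serve as a model of familial dysautonomia (FD), a hereditary sensory and autonomic neuropathy. From 4 months of age they received phosphatidylserine (PS), a membrane phospholipid, at 200 mg/kg in 100 µl, or the vehicle, medium-chain triglycerides (MCT). Gavage was given every other day for 3 months, and the question was whether PS affects gene expression. Heart and cerebrum were each profiled on 3 arrays from PS mice and 3 from MCT mice, 12 arrays in all. The carrier allele was thus shared by every group according to the array labels, and the series design names FD mice only. The growth protocol instead names 3 FD and 3 wild-type mice. Whether genotype differed between PS and MCT mice cannot be told from these conflicting labels. The source names give the dose per day rather than per kg.

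A core particle of stacked rings carries out proteolysis. Its outer rings are built from alpha subunits (Psma genes), which form the gate, and its inner rings from beta subunits (Psmb genes), of which Psmb5, Psmb6 and Psmb7 carry the active sites. A regulatory particle binds the gate, recognises ubiquitin chains and unfolds substrates. Its base holds the ATPases (Psmc genes) and scaffold subunits, and its lid holds the deubiquitinase Psmd14 with its partners. Activators encoded by the Psme genes can bind in place of the regulatory particle, and assembly chaperones (Psmg1 to Psmg4 for the core, Psmd5, Psmd9 and Psmd10 for the base) build the complexes. In heart muscle the proteasome is known for the turnover of contractile proteins, and in brain for the clearance of misfolded proteins.

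Values are log2 intensities, and levels of different rows cannot be set against each other, since probes differ in brightness. Array medians were 4.89 to 5.0, and arrays of a group correlated at 0.979 to 0.995 across rows. Tissue identity was checked: 6 of 6 measured cardiomyocyte markers were higher in heart and 6 of 6 neuron markers were higher in cerebrum, under PS and under MCT. The sex-linked RNA Xist was at 8.92 to 9.86 in the 3 heart PS arrays and in cerebrum PS 1 and PS 3, and at 3.32 to 4.03 in cerebrum PS 2 and the 6 MCT arrays. In heart, treatment and sex pattern therefore cannot be told apart. The labels name 6 mice, and PS 2 had Xist at 9.13 in heart and at 3.32 in cerebrum, so equal numbers need not mean the same mouse. Whether samples were exchanged or the tissues came from different mice cannot be told from the files, which limits what the cerebrum PS mean stands for. In cerebrum, a mean over striatal markers was 6.97, 7.06 and 9.08 in PS 1, 2 and 3, against 9.74, 9.90 and 9.74 in MCT 1, 2 and 3. The 3 samples of a group are labelled as biological replicates, and their number limits the precision of every comparison.

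Of the 52 rows, 49 averaged no less than the 40th percentile of all rows with 1 symbol and entered every comparison. The others were those of Psma8, a testis form of an alpha subunit, with 3.44 to 4.79 over the 12 arrays; of Psmb11, the thymus-specific catalytic subunit, with 4.22 to 4.63; and of Psmg3, a core assembly chaperone, with 4.44 to 4.84. All 3 lay below the array medians in both tissues. The tested rows comprised 19 of the alpha and beta rings and 19 of the base and lid, with 3 rows of core chaperones, 3 of base chaperones, 4 of activators and 1 of the regulator Psmf1.

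Proteasome transcripts were mostly higher in heart than in cerebrum. Under PS, 27 of the 49 rows were higher and 1 was lower in heart (limma, adjusted p under 0.05), where 38.3% of all tested transcripts were higher and 37.6% lower. Under MCT, 31 were higher and 1 was lower, where 35.2% of all tested transcripts were higher and 40.3% were lower. The median log2 difference over the 49 rows was 0.27 under PS and 0.48 under MCT, beside medians of 0.02 and -0.07 over all tested transcripts. The PS and MCT contrasts use different arrays. In bulk tissue, fewer cells of a type and less RNA per cell cannot be told apart.

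The activators stood furthest apart. Psme1 and Psme2 encode the alternating subunits of the interferon-induced activator PA28, Psme3 encodes its nuclear relative, and Psme4 encodes the large single-chain activator PA200. Psme4 was at 10.39, 10.24 and 10.39 in heart of PS mice and at 10.01, 10.21 and 10.42 in heart of MCT mice. In cerebrum, Psme4 was at 7.95, 7.94 and 7.98 under PS and at 7.92, 7.81 and 7.71 under MCT. Every heart array was therefore above every cerebrum array, by 2.38 ± 0.09 on the log2 scale under PS (SE, n = 3 per tissue; 5.22-fold; limma, adjusted p = 1.52e-07) and by 2.40 ± 0.13 under MCT (5.28-fold, adjusted p = 4.48e-07).

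Psme1 was at 9.74, 9.39 and 9.62 in heart of PS mice and at 9.70, 9.67 and 9.73 in heart of MCT mice. In cerebrum, Psme1 was at 7.48, 7.24 and 7.23 under PS and at 7.42, 7.47 and 7.25 under MCT. The tissues did not overlap, and the difference was 2.27 ± 0.12 under PS and 2.32 ± 0.11 under MCT (SE; limma, adjusted p = 1.47e-06 and 1.42e-07). Its partner Psme2 was 1.54 ± 0.09 higher in heart under PS and 1.63 ± 0.14 higher under MCT (adjusted p = 2.69e-06 and 6.33e-06). The genes of Psme1 and Psme2 lie close together on chromosome 14 (55578494 to 55581527 and 55587440 to 55591101, GRCm38.p6). Psme3 did not share the pattern: it was at 9.91, 9.93 and 9.92 in heart and 10.02, 10.26 and 9.93 in cerebrum under PS, and at 9.92, 9.87 and 9.65 in heart and 10.06, 10.01 and 10.06 in cerebrum under MCT. Its heart minus cerebrum difference was -0.15 under PS and -0.23 under MCT and did not pass the test (limma, adjusted p = 0.226 and 0.0946). The MCT difference passed after quantile normalization (adjusted p = 0.0214). Over its alternatives the adjusted p was 0.00193 to 0.22, the lowest from a fit with array weights that did not converge.

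Core assembly chaperones were higher in heart in 3 of 3 tested rows under both treatments, beside 38.3% (PS) and 35.2% (MCT) of all tested transcripts. Psmg1 and Psmg2 form the pair that starts the alpha ring, and Psmg4 joins Psmg3 in the second chaperone pair. The differences under PS were 0.80 for Psmg1, 0.85 for Psmg2 and 0.72 for Psmg4, and under MCT they were 1.22, 0.93 and 1.39 for the same genes. Psmg4 was at 6.96, 6.90 and 6.89 in heart of PS mice and at 8.12, 7.84 and 7.33 in heart of MCT mice, with 6.10, 6.07 and 6.42 in cerebrum under PS and 6.39, 6.53 and 6.19 under MCT. Heart exceeded cerebrum on every array of either treatment, and the heart MCT arrays were the most spread.

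The base chaperone Psmd5, which binds ATPases of the base during assembly, was the lone row lower in heart. It was at 7.53, 7.51 and 7.38 in heart and 8.15, 8.14 and 8.03 in cerebrum of PS mice. In MCT mice it was at 7.43, 7.31 and 7.18 in heart and 8.32, 8.23 and 8.30 in cerebrum. All 6 cerebrum arrays lay above all 6 heart arrays, with differences of -0.63 ± 0.09 under PS and -0.98 ± 0.11 under MCT (SE; limma, adjusted p = 0.00032 and 4.9e-05). The other base chaperones, Psmd9 and Psmd10, did not pass the test in either contrast.

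**Figure D1:**
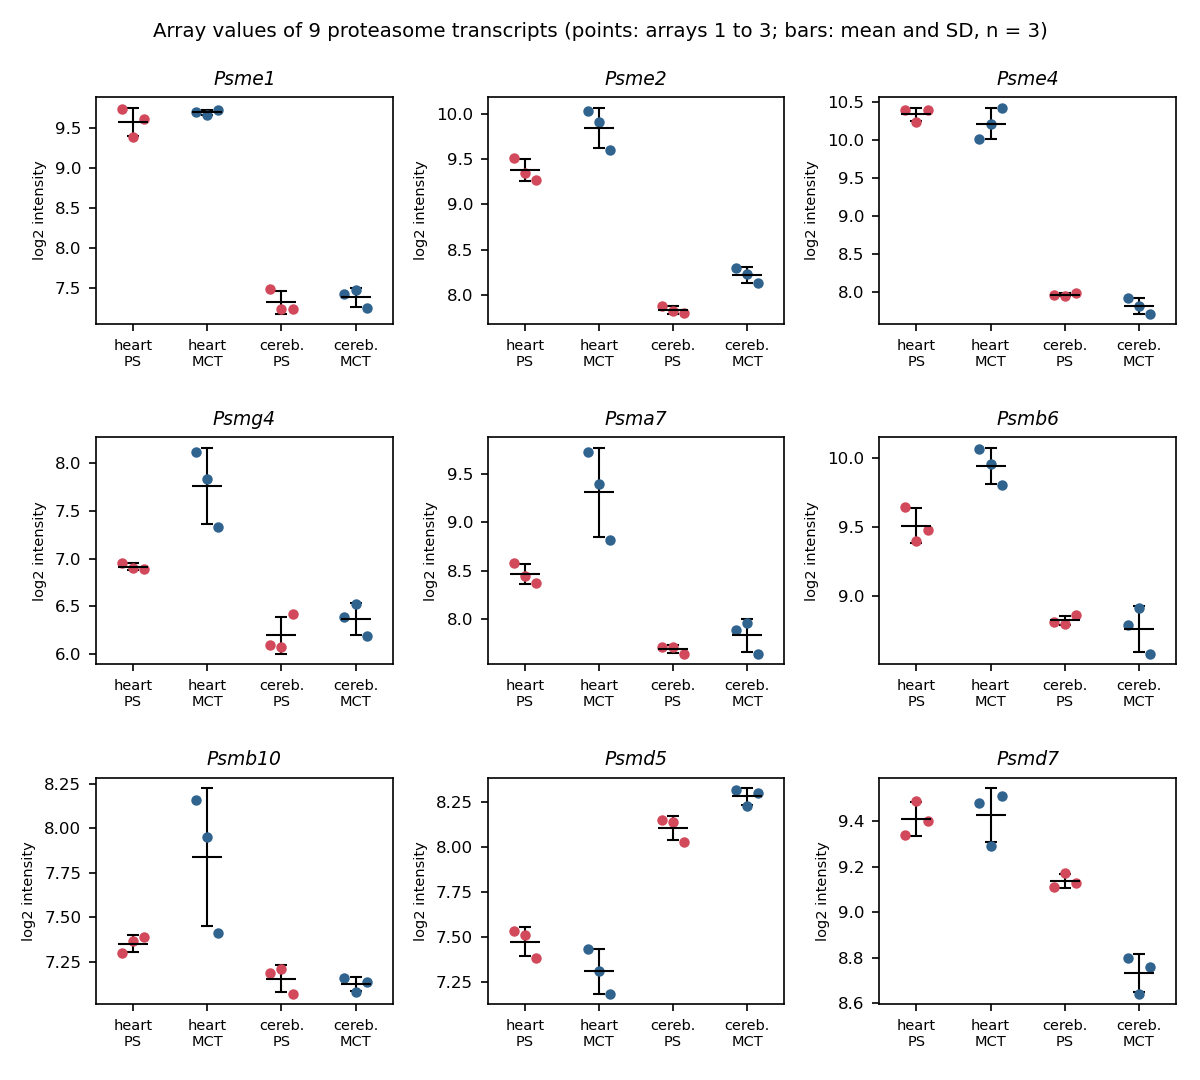
Log2 intensity of 9 proteasome transcripts on each array (points), with mean and SD of the 3 arrays of each group (bars), for heart and cerebrum (cereb.) of PS and MCT mice; each panel has its own scale, which does not start at 0. Psme1, Psme2 and Psme4 are far higher in heart, Psmd5 is higher in cerebrum, and the heart MCT arrays of Psmg4, Psma7 and Psmb10 are spread widely.

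Sequence around the starts of the genes was read, with examples picked from members that differed. Psme2, the partner of Psme1, is not among the examples. RefSeq promoter windows on GRCm38.p6, 250 bases before to 50 after the start, were matched for 37 of the 45 genes. They are shown for Psme1 and Psme4, the activators with the largest differences, for Psmg4, the core chaperone with the largest difference under MCT, for Psmd5, the row that was lower in heart, and for Psma1, the alpha subunit lower under PS in cerebrum. The windows are chr14:55578244-55578543 on the plus strand, chr11:30771525-30771824 on the plus strand, chr13:34162714-34163013 on the plus strand, chr2:34870913-34871212 on the minus strand and chr7:114276067-114276366 on the minus strand. They are written 5′ to 3′ in the direction of the gene, and capitals mark a match to an interferon-stimulated response element in Psme1 and Psmg4, to an antioxidant response element in Psme4 and to CCAAT boxes in Psma1.
Psme1: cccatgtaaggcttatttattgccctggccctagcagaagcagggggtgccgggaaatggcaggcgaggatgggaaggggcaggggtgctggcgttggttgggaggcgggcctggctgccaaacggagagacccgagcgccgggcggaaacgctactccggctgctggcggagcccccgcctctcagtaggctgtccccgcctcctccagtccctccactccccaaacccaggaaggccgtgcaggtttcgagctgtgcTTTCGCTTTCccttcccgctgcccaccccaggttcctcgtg
Psme4: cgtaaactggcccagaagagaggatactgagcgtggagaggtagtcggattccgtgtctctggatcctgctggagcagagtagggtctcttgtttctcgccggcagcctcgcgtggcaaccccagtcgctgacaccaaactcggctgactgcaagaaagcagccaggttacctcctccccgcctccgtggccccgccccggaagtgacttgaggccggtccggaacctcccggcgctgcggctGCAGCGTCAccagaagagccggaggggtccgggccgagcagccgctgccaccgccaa
Psmg4: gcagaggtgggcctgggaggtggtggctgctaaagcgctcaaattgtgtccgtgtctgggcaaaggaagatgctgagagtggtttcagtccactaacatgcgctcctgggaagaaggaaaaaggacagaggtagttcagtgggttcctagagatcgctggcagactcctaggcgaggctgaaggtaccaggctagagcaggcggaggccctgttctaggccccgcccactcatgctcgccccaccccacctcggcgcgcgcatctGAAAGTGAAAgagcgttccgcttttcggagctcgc
Psmd5: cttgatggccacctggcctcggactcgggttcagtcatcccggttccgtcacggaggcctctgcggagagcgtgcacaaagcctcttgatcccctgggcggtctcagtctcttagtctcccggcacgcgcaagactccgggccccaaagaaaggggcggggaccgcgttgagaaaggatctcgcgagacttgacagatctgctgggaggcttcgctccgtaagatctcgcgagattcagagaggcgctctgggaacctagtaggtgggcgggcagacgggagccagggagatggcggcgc
Psma1: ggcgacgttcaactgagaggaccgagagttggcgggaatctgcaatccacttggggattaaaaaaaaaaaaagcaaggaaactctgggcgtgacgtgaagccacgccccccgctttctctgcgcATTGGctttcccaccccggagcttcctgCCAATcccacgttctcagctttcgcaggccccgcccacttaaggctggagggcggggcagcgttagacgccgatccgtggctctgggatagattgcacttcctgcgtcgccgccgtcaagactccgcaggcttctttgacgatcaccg

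Both strands were searched for 3 motifs, and a match describes letters only. The interferon-stimulated response element, which interferon regulatory factors bind, was searched as TTTC followed, after any 2 bases, by TTTC. It was found in the windows of 5 of the 37 proteasome genes (Psmb3, Psmd4, Psmd9, Psme1 and Psmg4), or 13.5%, against 3.99% of the 27025 genes with a window. The antioxidant response element, bound by NRF1 and NRF2, was searched as TGACNNNGC and was in the windows of 6 genes (Psmb5, Psmb6, Psmc6, Psmd9, Psmd12 and Psme4), or 16.2%, against 14% of all. The CCAAT box was in the windows of 13 genes, or 35.1%, against 41.1% of all. The response element of Psme1 lies 9 to 18 bases after the start and that of Psmg4 15 to 24 bases after it, on the minus strand. Each window shown held matches to at most 1 of the motifs, so no overlap between motifs could arise there.

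In the alpha ring, 7 of 9 tested rows were higher in heart under PS and 9 of 9 under MCT. Of all tested transcripts 38.3% and 35.2% were higher. Psma7 had the largest difference of the ring under both treatments, with 0.78 ± 0.09 under PS and 1.48 ± 0.22 under MCT (SE; limma, adjusted p = 0.000112 and 0.000277). Psma7 was at 8.58, 8.44 and 8.37 in heart of PS mice and at 9.72, 9.39 and 8.81 in heart of MCT mice, with 7.71, 7.71 and 7.64 in cerebrum under PS and 7.89, 7.96 and 7.64 under MCT. Psma1 followed under PS with 0.72 ± 0.08, and was 0.58 ± 0.16 higher under MCT. The rows of Psma5 were 0.66 and 0.81 higher in heart under MCT and differed by -0.06 and 0.12 under PS, where neither passed. For no alpha-ring row was the difference between the contrasts past the test. Under MCT, Psma2 (0.46) had an adjusted p of 0.0476 and lost its call when any array other than heart MCT 3 was left out (0.0804 to 0.152). Psma6 had an adjusted p of 0.0505 without cerebrum MCT 3.

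The catalytic subunits did not move alike. Psmb6, which carries the caspase-like activity, was at 9.65, 9.40 and 9.48 in heart and 8.81, 8.80 and 8.86 in cerebrum of PS mice. In MCT mice it was at 10.07, 9.96 and 9.81 in heart and 8.79, 8.91 and 8.58 in cerebrum. Heart was above cerebrum on every array, by 0.69 ± 0.09 under PS and 1.19 ± 0.13 under MCT (SE; limma, adjusted p = 0.000298 and 3.66e-05).

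Psmb7, with the trypsin-like activity, was at 9.73, 9.61 and 9.80 in heart and 8.99, 9.05 and 9.11 in cerebrum of PS mice. In MCT mice it was at 10.25, 10.09 and 9.75 in heart and 9.25, 9.32 and 9.28 in cerebrum. It was higher in heart on every array, by 0.66 under PS and 0.75 under MCT (adjusted p = 0.000276 and 0.00125 in limma). Psmb5, with the chymotrypsin-like activity, was at 11.11, 11.13 and 11.15 in heart and 11, 11.18 and 11.09 in cerebrum of PS mice, and at 11.17, 11.19 and 11.12 in heart and 11.25, 11.19 and 11.09 in cerebrum of MCT mice. These groups overlapped, and the difference was 0.04 under PS and -0.02 under MCT (adjusted p = 0.684 and 0.891). The row of Psmb5 was at 11 or above on every array, in the bright part of the scale.

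Psmb10, the inducible catalytic subunit that takes the place of Psmb7 in immunoproteasomes, was at 7.30, 7.37 and 7.39 in heart and 7.19, 7.21 and 7.07 in cerebrum of PS mice. In MCT mice it was at 8.16, 7.95 and 7.41 in heart and 7.16, 7.08 and 7.14 in cerebrum. The difference of 0.20 under PS did not pass (adjusted p = 0.067 in limma; 0.0394 after median centring, 0.00892 after quantile normalization and up to 0.257 under other alternatives), and the difference of 0.71 under MCT passed (adjusted p = 0.00676). The difference between the contrasts was -0.52 and did not pass (limma, adjusted p = 0.216). Heart MCT 3 was close to the heart PS arrays.

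Of the structural beta subunits, Psmb2 was higher in heart by 0.60 under PS and 0.62 under MCT. In all, 2 of 6 rows were higher in heart under PS and 3 of 6 under MCT. Of all tested transcripts 38.3% and 35.2% were higher, so the PS count was near that share. Psmb3 and Psmb1 were split between their rows. Row 2 of Psmb3 passed under PS (0.26) and row 1 did not (0.19). Row 1 of Psmb1 passed under MCT (0.48) and row 2 did not (0.25). Row 2 of Psmb1 was dim, with a mean of 5.58 over all arrays against 9.11 for row 1, not far above the filter of 5.23. Without heart PS 1, heart PS 3 or cerebrum PS 2 the call of Psmb3 row 2 ended (adjusted p = 0.0511 to 0.0641), as it did after quantile normalization (0.174). Without heart MCT 2 or cerebrum MCT 3 that of Psmb1 row 1 ended (0.0558 and 0.0593). Differences between rows of a gene were at most 0.24 in any comparison. Psmb4 passed under MCT with 0.34 and lost its call when any array other than heart MCT 3 was left out (adjusted p = 0.0526 to 0.0987).

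Within the regulatory particle, 10 of 19 rows were higher in heart under PS and 10 of 19 under MCT. Of all tested transcripts 38.3% and 35.2% were higher. The ATPases were divided. Psmc6 was 0.77 higher under PS and 0.87 under MCT, Psmc3 was 0.55 and 0.97 higher, and Psmc2 was 0.35 and 0.47 higher, all past the test, although Psmc2 under PS did not pass without heart PS 1 or cerebrum PS 2 (adjusted p = 0.0761 and 0.0702). The rows of Psmc1, Psmc4 and Psmc5, subunits of the same ring, ranged from -0.11 to 0.12 under PS and from -0.19 to 0.22 under MCT and did not pass. Of the scaffold and receptor subunits of the base, the ubiquitin receptor Psmd4 passed with 0.38 under PS and 0.48 under MCT, whereas Psmd1 and both rows of the large scaffold Psmd2 did not.

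Of the 8 lid rows, 6 were higher in heart under PS and 6 under MCT, beside 38.3% and 35.2% of all tested transcripts. The largest difference was that of Psmd12, with 0.83 under PS and 0.75 under MCT, and Psmd6, Psmd7, Psmd11 and Psmd13 passed in both. Psmd3 passed under PS alone (0.28) and Psmd8 under MCT alone (0.30), and the difference between the contrasts was not past the test for either. The deubiquitinase Psmd14 differed by -0.21 under PS and -0.15 under MCT and did not pass (adjusted p = 0.0859 and 0.469 in limma). Leaving out an array ended the calls of Psmd8 under MCT (adjusted p = 0.0992 to 0.148 without any array but heart MCT 3, and 0.0631 with the replicate number as a block) and of Psmd13 under PS (0.0986 to 0.138 without heart PS 1, heart PS 2, cerebrum PS 1 or cerebrum PS 3). Under PS, leaving out an array also ended the call of Psmd3 (0.0507 to 0.0754 without heart PS 1, heart PS 3, cerebrum PS 2 or cerebrum PS 3) and of Psmd7 (0.0515 and 0.0568 without heart PS 2 or cerebrum PS 1). Psmf1, which encodes the proteasome-binding protein PI31, differed by -0.01 and -0.04.

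**Figure D2:**
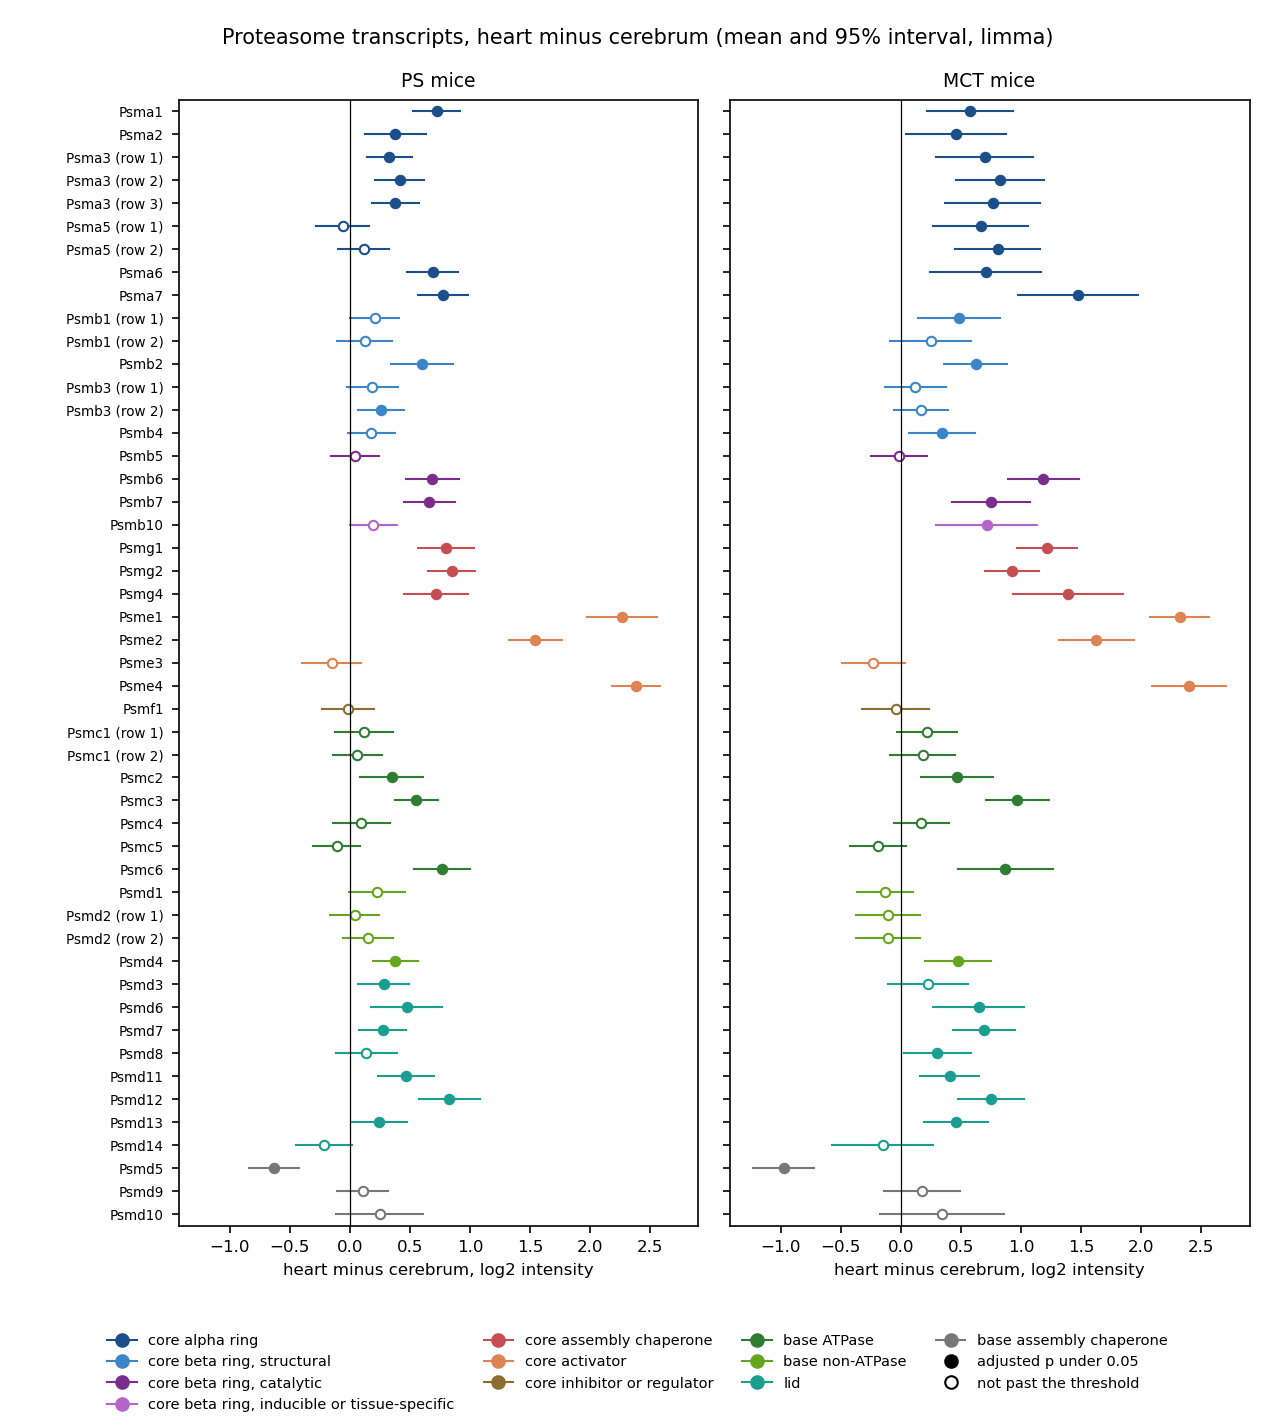
Heart minus cerebrum difference in log2 intensity of the 49 tested proteasome rows, with 95% intervals, in PS mice (left) and MCT mice (right); filled points had an adjusted p under 0.05 in limma and colours give the role in the complex. Psme4, Psme1 and Psme2 lie far to the right and Psmd5 alone is filled to the left of 0, and Psma7 lies at 0.78 in PS mice and at 1.48 in MCT mice. The difference between the contrasts was not past the test for Psma7 or any other row.

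Genes that act beside the proteasome lay on both sides. Of 17 measured genes for associated and regulatory proteins, 7 were higher and 7 lower in heart under PS, and 7 were higher and 4 lower under MCT. Of all tested transcripts, 38.3% were higher and 37.6% lower under PS, and 35.2% and 40.3% under MCT. The PS counts were thus near the shares over all transcripts. The stress regulator Nfe2l2 (NRF2) was 2.12 higher in heart under PS and 1.57 under MCT, and Sem1, a small lid subunit, was 1.55 and 1.66 higher. The shuttle receptor Ubqln2 was lower in heart, by 1.85 under PS and 2.43 under MCT (log2 differences of -1.85 and -2.43). Pomp, which drives the last step of core assembly, differed by -0.05 under PS, not past the test, and was 0.76 higher under MCT. The difference between the contrasts passed for 0 of the 17 genes. Among 9 genes for ubiquitin conjugation, 3 were higher and 3 lower under PS, again near those shares, and 3 were higher and 1 lower under MCT. The conjugating enzyme Ube2r2 was 0.98 and 0.84 higher, and the activating enzyme Uba6 differed by -0.64 and -0.66.

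Antigen-processing genes were mostly higher in heart. Of 10 tested genes of the immunoproteasome and of class I antigen loading, 7 were higher in heart under PS and 8 under MCT, and none was lower, with medians of 1.33 and 1.28. The immunoproteasome subunit Psmb9 was 0.69 higher under PS and 1.30 under MCT. The peptidase Erap1 was 1.92 and 1.73 higher, and the class I heavy chain H2-K1 2.25 and 1.99 higher. Markers of other cells were also compared between the tissues. Leukocyte markers were higher in heart for 3 of 7 tested genes under PS and 4 of 7 under MCT, with 1 lower in each. Of all tested transcripts 38.3% and 35.2% were higher, so the PS count was near that share. The log2 of their summed intensity was 10.46 to 11.5 in heart PS and 10.8 to 11.31 in heart MCT, against 9.41 to 9.84 in cerebrum PS and 9.52 to 9.55 in cerebrum MCT. Endothelial markers were higher in heart for 5 of 6 genes in both, with summed levels of 11.72 to 11.93 in heart PS and 11.1 to 11.51 in heart MCT, against 9.18 to 9.79 in cerebrum PS and 9.01 to 9.39 in cerebrum MCT. Their part in the differences of Psme1, Psme2 and Psmb10 was not tested.

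A list of 8 genes held muscle ubiquitin ligases, which tag muscle proteins for the proteasome, the FOXO factors that induce them, and Klf15. Of the 8, 7 were higher in heart under PS and 5 under MCT, with 1 and 2 lower. The muscle ligases Trim63 and Fbxo32 were 4.98 and 2.37 higher in heart under PS, and 4.89 and 1.94 higher under MCT. Trim63 was at 3.81 to 4.10 in cerebrum, below the array medians, so its differences are read as lower bounds. Ribosomal protein transcripts, another set for large cytosolic complexes, were higher in heart in 46 of 66 tested genes under either treatment and lower in 1, with a median of 0.41 under PS and 0.56 under MCT.

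In cerebrum, PS was set against MCT to ask whether the lipid affected these genes. Of the 49 rows, 1 was higher and 2 were lower under PS (limma, adjusted p under 0.05), where 1.83% of all tested transcripts were higher and 3.93% were lower. The share of members called, 3 of 49, was near the 5.76% of all tested transcripts. The median log2 difference was -0.09, beside -0.03 over all tested transcripts, and 35 of 49 rows were below 0, as were 54.7% of all transcripts.

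Psmd7, the lid subunit that pairs with the deubiquitinase, was at 9.11, 9.17 and 9.13 under PS and at 8.80, 8.64 and 8.76 under MCT. Every PS array was above every MCT array, with a difference of 0.40 ± 0.08 (SE; limma, adjusted p = 0.0382). Psma1, an alpha subunit, was at 9.0, 9.11 and 8.99 under PS and at 9.44, 9.41 and 9.40 under MCT, and fell by 0.38 ± 0.07 (adjusted p = 0.0382 in limma), with no overlap. The PA28 subunit Psme2 was at 7.88, 7.82 and 7.80 under PS and at 8.30, 8.23 and 8.13 under MCT, and fell by 0.39 ± 0.08 (adjusted p = 0.0419 in limma), again with no overlap. A row annotated to both Psme2 and its copy Psme2b was left out.

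These 3 calls did not hold in most fits that left out an array. None of them was past the threshold without PS 1, without PS 2, without MCT 1 or without MCT 2, and Psma1 and Psmd7 were not past it without MCT 3 (adjusted p = 0.057 and 0.0556); all 3 held without PS 3. Few transcripts of any kind passed in some of these fits: 0 of 12731 without PS 1, 145 of 12731 without PS 2, 0 of 12735 without MCT 1 and 2 of 12732 without MCT 2. Over its alternatives the adjusted p ran from 0.0139 to 0.456 for Psmd7, from 0.00719 to 0.411 for Psma1 and from 0.00809 to 0.425 for Psme2. With the striatal mean as a covariate 0 of 49 rows passed, and 1 of all 12733 transcripts did. With PS 2, the array whose sex pattern matched the MCT arrays, as the only PS array, 0 of 49 rows and 1269 of 12734 transcripts passed; this fit takes its spread from the MCT arrays and assumes that the lone PS array varies like them. The directions did not change: over the alternatives Psmd7 was 0.35 to 0.46 higher, Psma1 differed by -0.45 to -0.31 and Psme2 by -0.44 to -0.35.

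The remaining members of the alpha ring lay mostly below 0 without passing. Psma6 differed by -0.46 (adjusted p = 0.053 in limma), Psma2 by -0.34 (0.081) and the 3 rows of Psma3 by -0.28, -0.25 and -0.28 (0.0849 to 0.111), whereas both rows of Psma5 were near 0, at 0.01 and 0.04. Of the 19 core rows 15 were below 0, with a median of -0.23, and PS lay entirely below MCT in 11 of them. Of the 19 base and lid rows 13 were below 0, with a median of -0.04, and PS lay entirely below MCT in 4. PS was entirely below MCT in 20.4% of all tested transcripts.

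The named catalytic subunits and activators did not pass in cerebrum apart from Psme2. Psmb5 differed by -0.09, Psmb6 by 0.06 and Psmb10 by 0.03, and Psmb7 by -0.23 (95% interval -0.41 to -0.06; limma, adjusted p = 0.0944). Psme1 differed by -0.06, Psme3 by 0.03 and Psme4 by 0.14, with adjusted p from 0.285 to 0.878. Psmf1 had the lowest unadjusted p of the rows above 0 that did not pass, with 0.17 (adjusted p = 0.197). The X-linked base chaperone Psmd10 differed by -0.46 (adjusted p = 0.0781).

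In heart, 0 of 49 rows passed (limma, adjusted p under 0.05), and 14 had an unadjusted p under 0.05, all of them lower under PS. Of all tested transcripts 0.33% passed and 10.3% were lower at an unadjusted p under 0.05. The median difference was -0.24, beside 0.06 over all tested transcripts, and 40 of 49 rows were below 0, against 42.1% of all transcripts. The rows below 0 were unevenly spread over the complex. All 19 core rows were below 0, with a median of -0.44. Of the base and lid rows 14 of 19 were below 0, with a median of -0.14.

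The largest differences in heart were in the alpha ring and its chaperone. Psma7, at the values given above, was lower on each PS array than on any MCT array, with a difference of -0.84 (95% interval -1.35 to -0.34; limma, adjusted p = 0.125). Psmg4 likewise did not overlap, with a difference of -0.85 (-1.30 to -0.40; adjusted p = 0.119). The rows of Psma5 were at 7.94, 7.95 and 7.78 (row 1) and 7.84, 7.90 and 7.80 (row 2) under PS, and at 8.81, 8.75 and 8.25 (row 1) and 8.72, 8.60 and 8.18 (row 2) under MCT. Their differences were -0.71 and -0.65 (adjusted p = 0.119 and 0.122), and again the groups did not overlap. The 3 rows of Psma3 differed by -0.65, -0.66 and -0.67, and Psmb1 row 1 by -0.59. PS lay entirely below MCT in 16 of the 49 rows and above it in 1, Psmd2 row 2, and in 11.2% and 17.2% of all tested transcripts.

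Among catalytic subunits in heart, Psmb6 differed by -0.44 (95% interval -0.73 to -0.14; limma, adjusted p = 0.134), Psmb10 by -0.49 (0.185), Psmb7 by -0.32 (0.243) and Psmb5 by -0.03 (0.878). Of the activators, Psme2 differed by -0.47 (adjusted p = 0.14), with 9.51, 9.35 and 9.27 under PS and 10.03, 9.91 and 9.60 under MCT. Psme1 differed by -0.12, Psme3 by 0.11 and Psme4 by 0.13, with adjusted p of 0.58 to 0.589. The scaffold subunits of the base went the other way, with 0.13 for Psmd1 and 0.16 and 0.25 for the rows of Psmd2, none of them past the test. Psmf1 differed by 0.20 and the base chaperone Psmd5 by 0.17, which did not pass either (adjusted p = 0.361 and 0.41).

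The heart MCT arrays were spread more widely than the others. The median SD of the 49 rows was 0.18 in heart MCT, against 0.08 in heart PS, 0.09 in cerebrum PS and 0.08 in cerebrum MCT. Over all transcripts it was 0.195 in heart MCT, against 0.123 in heart PS, 0.123 in cerebrum PS and 0.100 in cerebrum MCT. The wider spread was therefore not particular to the proteasome rows. Heart MCT 3 was the lowest MCT array in 18 of 19 core rows and MCT 1 was the highest of the 6 heart arrays in 17. Relative to the MCT mean, the median over the core rows was -0.35, -0.48 and -0.47 on PS 1, 2 and 3, and 0.23, 0.06 and -0.32 on MCT 1, 2 and 3. MCT 3 was thus close to the PS arrays for the core. Without MCT 3, 21 of 49 rows were lower and 0 higher under PS (limma, adjusted p under 0.05), beside 13.6% and 13.2% of all tested transcripts. These were 14 of the 19 core rows, with all 9 alpha-ring rows, and 3 of the 19 base and lid rows (Psmc6, Psmd8 and Psmd14), with Psmg4, Psme2, Psmd9 and Psmd10. Leaving out any one of the other 5 heart arrays gave 0 rows. With PS 3 left out as well as MCT 3, 10 rows were lower and 0 higher, beside 5.74% and 3.49% of all.

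Ribosomal protein transcripts moved with the core rows from array to array. Relative to the MCT mean, their median was -0.34, -0.41 and -0.39 on heart PS 1, 2 and 3, and 0.20, 0.10 and -0.29 on heart MCT 1, 2 and 3. In cerebrum it was -0.26, -0.33 and -0.12 on PS 1, 2 and 3, and 0.03, 0.13 and -0.17 on MCT 1, 2 and 3, where the core rows had -0.18, -0.20 and -0.17 under PS and 0.04, 0.05 and -0.11 under MCT. In heart 0 of 66 ribosomal protein genes passed in PS against MCT and 62 were below 0. In cerebrum 4 of 65 were lower, 0 were higher and 58 were below 0. The mean of 6 endothelial markers in heart ran the other way. It was 8.92, 9.16 and 8.95 on PS 1, 2 and 3, against 8.41, 8.62 and 8.78 on MCT 1, 2 and 3, with no overlap and MCT 3 nearest the PS arrays. Of the 6 markers, 5 were above 0, 1 was below and 0 passed. The 1 below was Cldn5, at 7.49, 8.03 and 7.63 on PS 1, 2 and 3, and 8.2, 8.07 and 7.73 on MCT 1, 2 and 3. In cerebrum the mean of 3 oligodendrocyte markers was 8.73, 9.01 and 9.14 on PS 1, 2 and 3, against 9.54, 9.80 and 9.13 on MCT 1, 2 and 3, and 1 of 3 was lower. The part that these markers, the shared movement, the sex pattern or the make-up of the dissected tissue had in the proteasome values was not tested. The atrial light chain Myl7 was at 4.16, 4.17 and 6.8 in heart PS and 4.37, 5.08 and 8.53 in heart MCT, with the highest value of each group on the array numbered 3. The 5 atrial markers did not share this pattern. Myl4 and Sln were also highest on the arrays numbered 3, and Bmp10 was so in heart PS but not in heart MCT. Nppa was lowest on them, with 11.31, 12.31 and 10.71 in heart PS and 11.34, 11.51 and 10.44 in heart MCT.

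**Figure D3:**
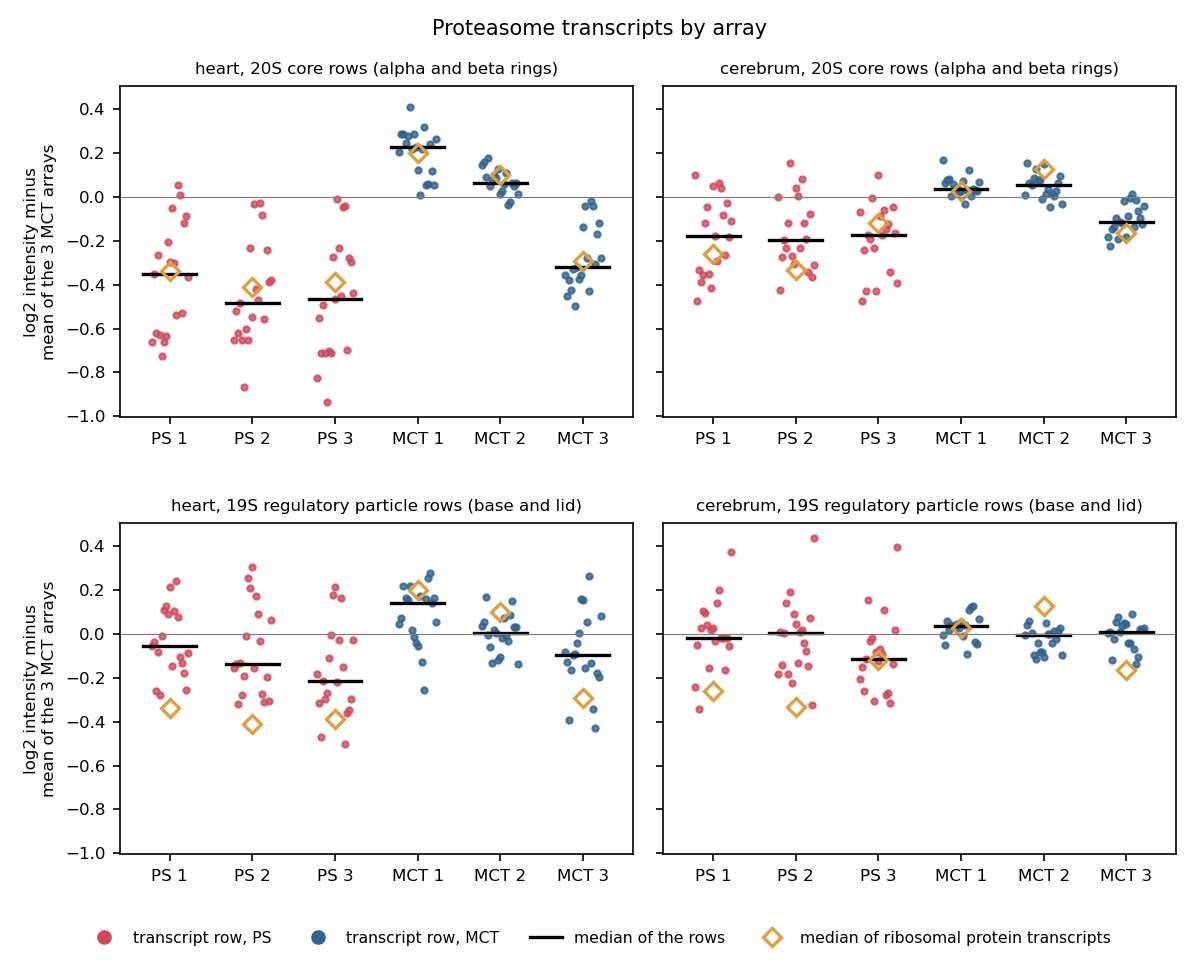
Log2 intensity of each tested core row (top) and base or lid row (bottom) minus the mean of the 3 MCT arrays of its tissue, by array, for heart (left) and cerebrum (right). Black lines are medians of the 19 rows and diamonds are medians of ribosomal protein transcripts; heart MCT 3, with a core median of -0.32, lies near the heart PS arrays, and the base and lid medians stay between -0.21 and 0.14.

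Genes beside the proteasome did not pass in PS against MCT in either tissue. The counts past the test were 0 of 17 associated and regulatory genes and 0 of 9 ubiquitin genes in heart and in cerebrum, and 0 of 11 immunoproteasome and antigen-loading genes in heart and 0 of 8 in cerebrum. In heart, Ubqln2 differed by 0.59 (limma, adjusted p = 0.125), Pomp by -0.50 (0.181), Nfe2l2 by 0.46 (0.157) and Sem1 by -0.44 (0.14). The immunoproteasome subunits Psmb9 and Psmb8 differed by -0.45 and -0.46 in heart, whereas Tapbp and H2-K1 of the loading machinery differed by 0.46 and 0.50, none past the test. In cerebrum, Sem1 differed by -0.33 (adjusted p = 0.0838) and Pomp by 0.32 (0.111). All 8 genes listed as muscle ligases and FOXO factors, with Klf15, were above 0 in heart under PS. Their median was 0.30 and 0 passed the test, and 7354 of all 12736 tested transcripts were above 0.

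**Figure D4:**
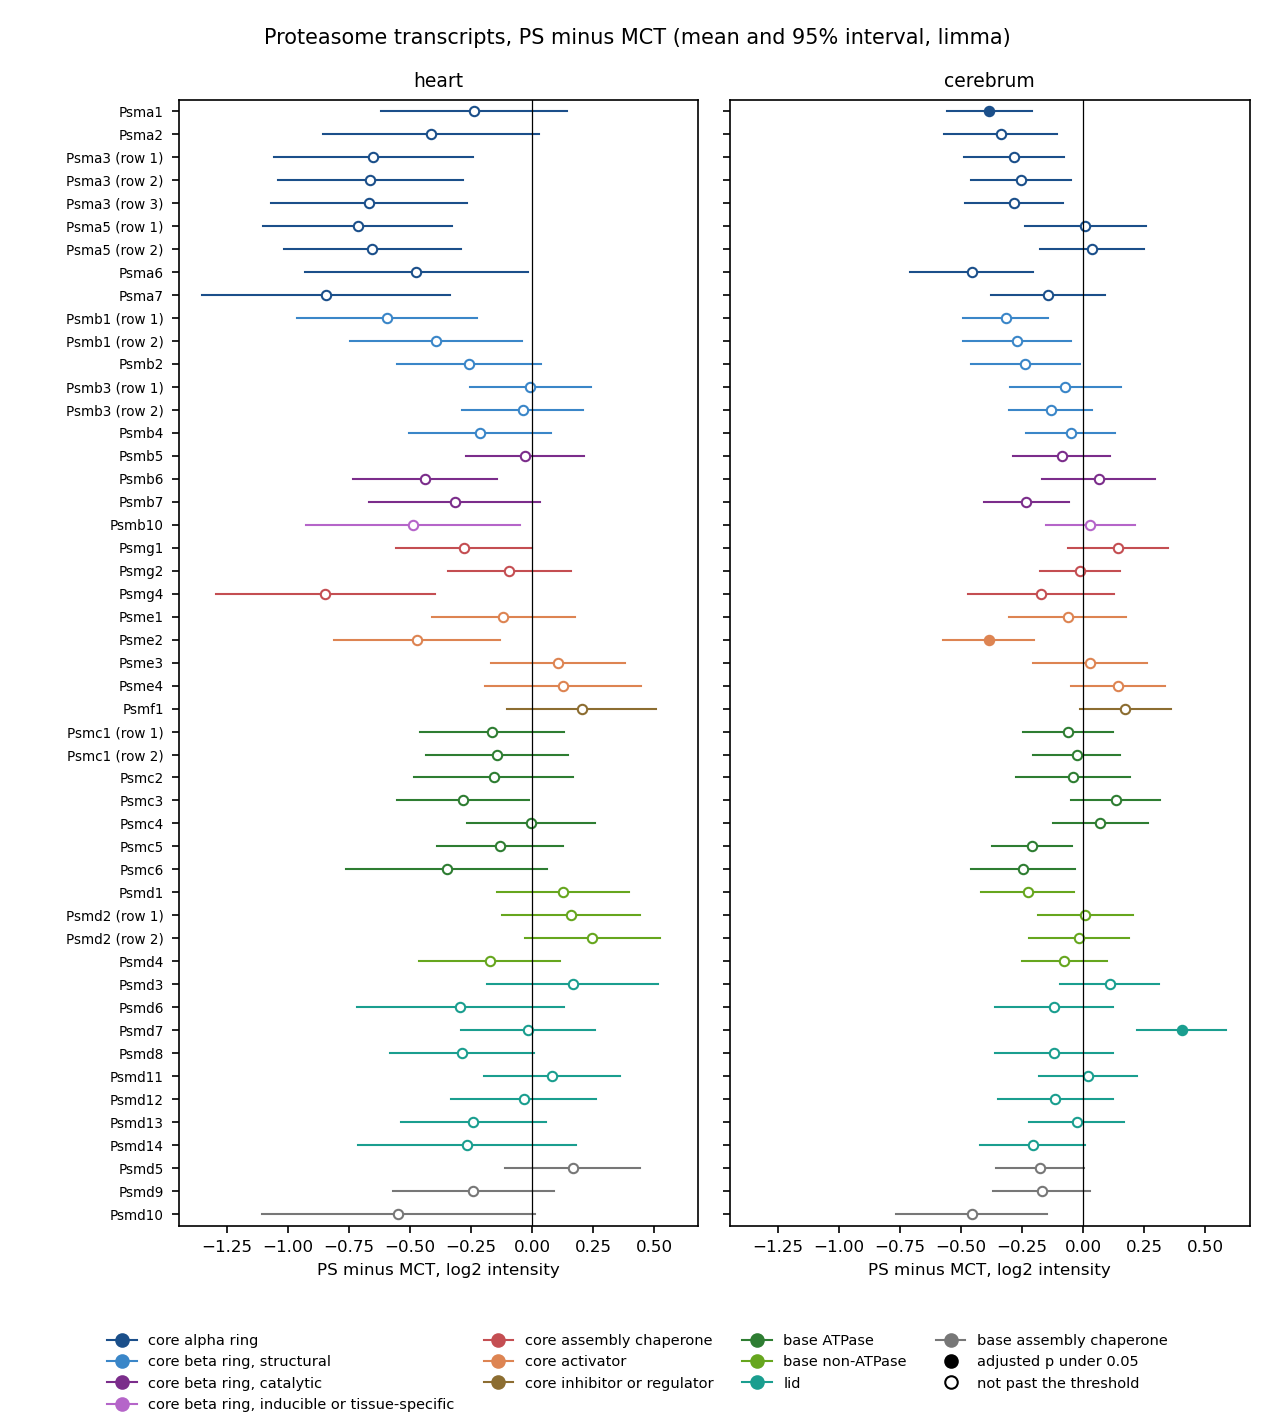
PS minus MCT difference in log2 intensity of the 49 tested proteasome rows, with 95% intervals, in heart (left) and cerebrum (right); filled points had an adjusted p under 0.05 in limma and colours give the role in the complex. In heart the alpha-ring rows lie between -0.84 and -0.24 with no filled point, and in cerebrum Psma1, Psme2 and Psmd7 are filled.

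The difference of the PS effect between heart and cerebrum was tested over all 12 arrays, which it shares with the comparisons above. It passed for 0 of 49 rows (limma, adjusted p under 0.05), beside 1.52% of all tested transcripts, and 11 rows had an unadjusted p under 0.05, beside 19.2% of all. The median was -0.08, beside 0.07 over all tested transcripts. The rows of Psma5 had the lowest p, with -0.72 ± 0.21 and -0.69 ± 0.19 (SE; adjusted p = 0.0921 and 0.0813). Psma5 lay near 0 in cerebrum and below 0 in heart. Psmb6 had -0.50 (adjusted p = 0.119), and Psmc3 and Psmd7 had -0.42 each (0.118 and 0.12). Without heart MCT 3, 12 rows were lower and 0 higher, beside 5.16% and 7.63% of all, and leaving out any other array gave 0.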

How the data were processed

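Total RNA of heart and cerebrum was hybridised to whole-transcript Affymetrix arrays, as the labels' protocols say. The submitters' processing notes name Affymetrix Expression Console, with version, build and summary method not given in the sources used here. In the authors' deposited table there is 1 value per row and array, taken as log2 intensity since values ran from 1.9 to 13.11, and used without further scaling. A shift common to all transcripts would be hidden by such normalized values. Rows were named by the platform annotation (21218 rows with 1 symbol). Members and lists were chosen with earlier results of these data known.

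Groups were tissue and treatment, with 3 arrays each. limma 3.58.1 (lmFit and eBayes, R 4.3.3) was run on all single-symbol rows averaging no less than the 40th percentile over the arrays fitted, with Benjamini-Hochberg adjustment over all of them and a threshold of 0.05. Per-array values were given for Psmb5, Psmb6, Psmb7, Psmb10 and the Psme genes where they bear on a comparison, and for the rows with the largest differences past the threshold in each comparison, filled up by lowest p. Genes beside the proteasome were those of each list with the lowest p, together with Psmb8, Pomp and the best-known ligases, which were picked with the values in view. Simulated data were used to test the fits. Alternatives were other scalings, filters, intensity trend, array weights, a fit over all arrays, all rows, a replicate block and leaving out arrays.

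The replicate numbers were checked for pairing by correlating deviations from the group means. For heart and cerebrum under MCT the correlations were 0.114, 0.102 and 0.287 for numbers 1, 2 and 3, all above 0.1 but too weak to establish pairing. The reported fits were unpaired in every comparison, and the replicate number entered only as a block in an alternative fit. The labels do not state that tissues of equal number came from the same mouse. Other comparisons had at least 1 value under 0.1.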

Additional observations from a re-analysis of the deposited data

Results flagged for a closer look

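The FOXO factor Foxo1, a regulator of muscle ubiquitin ligases, was listed beside the proteasome genes because its PS effect differed between heart and cerebrum in the test of that difference (1.33 ± 0.28 on the log2 scale, SE; limma, adjusted p = 0.0434). In heart, Foxo1 was at 7.37, 7.89 and 7.56 under PS and at 6.77, 7.01 and 7.23 under MCT. In cerebrum it was at 6.67, 6.62 and 7.39 under PS and at 7.51, 7.70 and 7.65 under MCT. The striatal marker mean of the same cerebrum arrays was 6.97, 7.06 and 9.08 under PS and 9.74, 9.90 and 9.74 under MCT, so PS 3 was nearest the MCT arrays in both, and its part in the Foxo1 values was not tested. Neither difference within a tissue passed by itself, with 0.60 in heart (adjusted p = 0.134) and -0.73 in cerebrum (adjusted p = 0.0688). No group was large enough for a search for outlying arrays.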

How the results depend on the processing

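Counts of proteasome rows past the threshold moved most for PS against MCT. In cerebrum, 3 rows passed as reported. There were 5 after median centring, 5 with a 60th percentile filter, 5 with an intensity trend, 17 with array weights (beside 3407 of all 12733 transcripts) and 1 (Psmd7) in a fit over all 12 arrays (beside 279 of 12731). There were 0 with all transcript clusters tested (beside 189 of 21343), 0 with the replicate block (beside 0 of 12733), 0 with PS 2 as the only PS array and 0 with the striatal mean as a covariate. Leaving out an array gave 0 to 3. In heart, 0 passed as reported, 33 with array weights, which did not converge there (beside 6987 of 12736), 10 in a fit over all 12 arrays (beside 1567 of 12731), 10 with both arrays numbered 3 left out (beside 1176 of 12737), and 0 to 21 with an array left out. For the difference of the PS effect, array weights gave 1 (Psma5, not converged) and leaving out an array 0 to 12. The cause of these shifts was not tested.

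Heart against cerebrum stayed within 1.5 times of the reported counts of 28 (PS) and 32 (MCT), although the array weights did not converge under MCT. Leaving out an array gave 25 to 28 under PS and 27 to 37 under MCT. With the replicate number as a block the counts were 28 under PS, 31 under MCT, 0 in heart and 0 for the difference of the PS effect. Apart from Psmd8 under MCT (adjusted p = 0.0631) and the 3 cerebrum calls, the block changed no call of a named row. Followed over the settings were the rows called as reported, with those of Psmb5, Psmb6, Psmb7, Psmb10 and the Psme genes throughout. Of these values, 1342 kept direction and side of the threshold, 72 no longer passed, 18 passed anew and 0 reversed. Other rows that passed only in an alternative fit, as in heart without MCT 3, were not counted. Over all tested transcripts in cerebrum, 501 of 734 calls were lower as reported, 814 of 988 after median centring and 472 of 812 after quantile normalization. For the members, 2 of 3 calls were lower, and 4 of 5 after median centring. Quantile normalization moved the median of all transcripts in heart against cerebrum under MCT to 0.08, against -0.07 as reported. With 3 arrays a group, small differences could pass only where the spread between arrays was small.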
